A study of Mus musculus and Canis lupus familiaris with 12 samples.

Results

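Kruppel-like factor (KLF) genes encode transcription factors with C-terminal zinc fingers that bind GC-rich and CACCC-type DNA, and they were followed here in osteosarcoma cells given an inhibitor of protein synthesis. The rows were those named Klf2, Klf3, Klf4, Klf5, Klf6, Klf7, Klf9, Klf10, Klf11 or Klf13, ignoring case. All 10 had a row among the 78317 of the mouse table. Of the 10, 8 did among the 30424 dog rows, and KLF2 and KLF13 had none under that name. The lines were DLM8, a mouse osteosarcoma line, and Gracie, a dog osteosarcoma line, both given as wild type in the labels and each represented by 1 line only. Treated cells had 50 nM omacetaxine (OMX, also homoharringtonine), a plant alkaloid that blocks elongation at the ribosome, for 6 h. Control cells are called untreated in the sample labels, while the treatment protocol names DMSO. Poly(A) RNA was sequenced in 3 libraries per group, 12 in all.

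KLF proteins fall into groups by the partners of their N-terminal part. Klf2, Klf4, Klf5, Klf6 and Klf7 are mainly activators, Klf3 recruits the corepressor CtBP, and Klf9, Klf10, Klf11 and Klf13 recruit the SIN3 corepressor complex. Several behave as early response genes with short-lived RNAs and proteins, and Klf10 is known in osteoblasts as a gene rapidly induced by TGF-beta.

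Totals were 9099313 to 11392715 counts per library in DLM8 and 2385102 to 3381831 in Gracie. Whether the 3 libraries of a group came from different dishes is not given, and the p-values reflect library-to-library variation that could be technical. In bulk RNA, fewer cells expressing a gene and less of its RNA per cell cannot be told apart. In the mouse table, 691 of 900 pairs of a protein-coding and a non-coding gene with exons overlapping on opposite strands (76.8%) held more counts in the non-coding row. The row of mt-Nd6, the mitochondrial gene on the strand opposite to the other 12 protein-coding ones, held 49.9 to 94.1 times their median. A row is therefore not read below as an mRNA level, and whether a row's change is that of the gene's mRNA was not tested. These strand checks covered the mouse table alone, so whether dog rows hold opposite-strand counts was not tested. Of the osteoblast markers, Runx2, Sp7, Alpl and Col1a1 had 130, 80.0, 259 and 611 CPM (counts divided by the TMM-scaled library size) in untreated DLM8 cells. Spp1 had 49.5, Dlx5 19.7 and Bglap 2.11 CPM, and Ibsp had 2 counts in 1 library and 0 in the others. In untreated Gracie cells RUNX2 had 17.6, COL1A1 6.97 and SP7 5.95 CPM. ALPL, IBSP and SPP1 had 0 counts in those cells, and DLX5 had 0 counts in every library. The summed osteoblast markers went from 933 to 1351 CPM in the untreated to 411 to 614 CPM in the OMX libraries of DLM8. In Gracie they went from between 24.1 and 34.1 to between 56.3 and 64.5 CPM. There the mean of SP7 went from 5.95 to 30.5 CPM, that of RUNX2 from 17.6 to 21.5 and that of COL1A1 from 6.97 to 6.68. Leukocyte, endothelial and epithelial markers summed to at most 5.5 CPM per list in DLM8 and 12.4 CPM in Gracie. The endothelial sum was higher in the OMX libraries of both lines, 1.38 to 5.5 against 0 to 0.0928 CPM in DLM8, where Kdr had 0 counts, and 4.24 to 12.4 against 2.32 to 3.11 CPM in Gracie. In DLM8 the leukocyte sum went from between 0.0928 and 0.232 to between 0.944 and 2.08 CPM, with Adgre1 at 0, and the epithelial sum from between 0 and 0.697 to between 1.38 and 5.29 CPM, with Epcam at 0. In Gracie the leukocyte and epithelial sums overlapped between the groups. Summed over the libraries of a group in DLM8, Cdh5 went from 0 to 99 counts, Cd68 from 3 to 36 and Krt14 from 4 to 91. The part of these shifts in the results below was not tested.

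With OMX, Klf10, Klf6, Klf11 and Klf7 rose in both lines. KLF5 rose in Gracie and had no counts in DLM8, and Klf13, which could be followed in DLM8 alone, fell. Klf3 and Klf4 were not called in either line, nor were Klf2 and Klf9 in DLM8. In DLM8 4 of 9 tested members were higher and 1 was lower at an adjusted p under 0.05, while 19.4% of the 17109 tested genes were called higher and 15.9% lower (35.3% in either direction). In Gracie 5 of 7 tested members were higher and 0 lower, where 12.5% of the 10423 tested genes were called higher and 8.06% lower (20.6% in either direction). All 9 and all 7 met the filter on low counts by their untreated libraries alone. The members' median log2 fold change was 0.38 in DLM8 and 1.76 in Gracie, beside 0.02 and -0.01 over all genes tested. Scaled by library size alone, the calls over all genes shifted from 3311 higher and 2726 lower to 3977 and 1991 in DLM8, and from 1308 and 840 to 1084 and 1204 in Gracie, while the members' calls were the same in number. Untreated and OMX libraries did not overlap for 5 of the 9 members in DLM8, where 49% of tested genes did not overlap, and for 5 of the 7 in Gracie, where 39.7% did not. With OMX, Klf10 and Klf6 together made up 72.6% of the members' summed mean CPM in DLM8, against 18.8% untreated, and 89.1% in Gracie, against 62.9%.

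**Figure D1:**
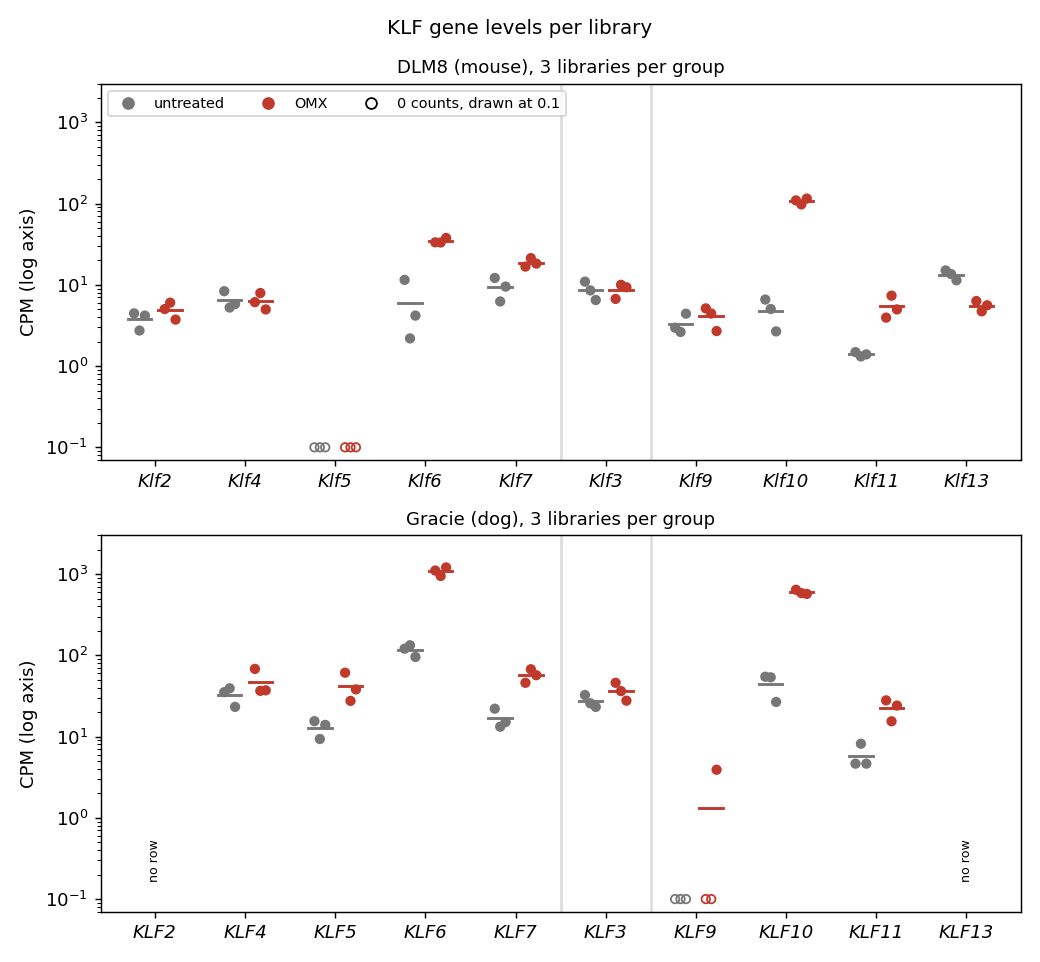
Level of each member in every library on a log axis of CPM (grey untreated, red OMX, bars the means of 3 libraries), ordered as activators, Klf3 and SIN3-binding members. Klf10 rose in DLM8 from between 2.67 and 6.59 to between 97.9 and 115 CPM and in Gracie from between 26.7 and 54.6 to between 571 and 643 CPM.

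Klf10, also called TIEG1, encodes a repressor induced by TGF-beta. In DLM8 its row (ENSMUSG00000037465) held 6.59, 5.04 and 2.67 CPM in the untreated and 110, 97.9 and 115 CPM in the OMX libraries. Each OMX library was above every untreated one by a wide margin, and the log2 fold change was 4.47 (SE 0.26, adjusted p = 2.4e-07). In Gracie KLF10 (ENSCAFG00000000638) held 54.6, 53.7 and 26.7 CPM untreated and 643, 584 and 571 CPM with OMX. The groups were again far apart, and KLF10 had a log2 response of 3.73 (SE 0.27, adjusted p = 1.45e-06). Ordered by log2 fold change from the highest, Klf10 stood at place 211 of 17109 tested genes in DLM8 and 106 of 10423 in Gracie.

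Klf6 encodes a widely expressed activator known as a gene induced by injury and as a tumour suppressor. In DLM8 (ENSMUSG00000000078) it held 11.5, 2.19 and 4.18 CPM untreated and 33.4, 33.2 and 37.8 CPM with OMX. The untreated libraries were spread over several fold, replicate 1 being the high one, while the OMX libraries were close together and all above them. The log2 fold change was 2.52 (SE 0.42, adjusted p = 0.00069). Without untreated replicate 1 it was 3.43, without replicate 2 it was 2.11 and without replicate 3 it was 2.31. In Gracie KLF6 (ENSCAFG00000005354) held 121, 133 and 95.6 CPM untreated and 1107, 950 and 1210 CPM with OMX. The groups did not overlap, and the log2 fold change was 3.22 (SE 0.21, adjusted p = 8.05e-07).

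Klf11, also called TIEG2, encodes a relative of Klf10 that likewise binds SIN3. Its DLM8 row (ENSMUSG00000020653) was low, with 1.49, 1.32 and 1.39 CPM (16, 12 and 12 counts) untreated and 3.95, 7.36 and 4.98 CPM (40, 78 and 48 counts) with OMX. The untreated libraries were nearly equal and all below the OMX libraries (log2 fold change 1.95, SE 0.43, adjusted p = 0.00372). KLF11 in Gracie (ENSCAFG00000003405) held 4.65, 8.18 and 4.64 CPM untreated and 27.9, 15.4 and 24.1 CPM with OMX. The groups did not overlap there either, and the log2 fold change was 1.94 (SE 0.44, adjusted p = 0.00639).

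Klf7 encodes an activator known from axon growth in neurons. In DLM8 (ENSMUSG00000025959) it held 12.2, 6.25 and 9.53 CPM untreated and 16.8, 21.3 and 18.3 CPM with OMX. All OMX libraries were higher, by a smaller margin than for Klf10, and the log2 fold change was 1.01 (SE 0.26, adjusted p = 0.0106). The call did not hold when replicate 2 of the untreated cells was left out (0.77, adjusted p = 0.0523), nor when replicate 2 of the OMX cells was (0.90, adjusted p = 0.0549). In Gracie KLF7 (ENSCAFG00000013485) held 22.1, 13.2 and 15.1 CPM untreated and 46.0, 67.5 and 57.0 CPM with OMX, without overlap (log2 fold change 1.76, SE 0.29, adjusted p = 0.000926).

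Klf5 encodes an activator of proliferation, best known in intestinal crypt cells. It had 0 counts in all 6 DLM8 libraries, and a count of 0 allows a level of up to 0.278 to 0.349 CPM per library (3 counts, counting error only). In Gracie KLF5 (ENSCAFG00000005037) held 15.5, 9.34 and 13.9 CPM untreated and 61.2, 27.5 and 38.1 CPM with OMX. The OMX libraries differed among themselves by over 2-fold yet were all above the untreated ones (log2 fold change 1.70, SE 0.36, adjusted p = 0.00461).

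Klf13, a SIN3-binding member known as a regulator of the chemokine gene Ccl5 in T cells, was the called fall among the members. Its DLM8 row (ENSMUSG00000052040) held 15.04, 13.6 and 11.4 CPM untreated and 6.32, 4.72 and 5.61 CPM with OMX. All OMX libraries were below all untreated ones, and the log2 fold change was -1.27 (SE 0.26, adjusted p = 0.00241). Klf9, a member induced by glucocorticoid and thyroid hormone, held 2.97, 2.63 and 4.42 CPM untreated and 5.14, 4.44 and 2.70 CPM with OMX in DLM8. The libraries overlapped, and the difference of 0.30 (95% interval -0.60 to 1.19, adjusted p = 0.604) did not exceed their spread. In Gracie KLF9 had 12 counts in OMX replicate 3 and 0 in the other 5 libraries, and it did not pass the filter.

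Klf2, which keeps endothelial and T cells quiescent, and Klf4, an activator used in reprogramming to pluripotency, overlapped between the groups. Klf2 in DLM8 held 4.46, 2.74 and 4.18 CPM untreated and 5.04, 6.04 and 3.74 CPM with OMX (log2 fold change 0.38, 95% interval -0.43 to 1.18, adjusted p = 0.451). Klf4 in DLM8 held 8.35, 5.26 and 5.81 CPM untreated and 6.12, 7.93 and 4.98 CPM with OMX (log2 fold change -0.03, 95% interval -0.72 to 0.66, adjusted p = 0.949). In Gracie KLF4 held 35.2, 39.3 and 23.2 CPM untreated and 68.2, 36.6 and 37.1 CPM with OMX, where OMX replicate 1 was the high library. Its log2 fold change was 0.53 (95% interval -0.14 to 1.20, adjusted p = 0.253). Klf3, the CtBP-binding repressor, held 10.95, 8.55 and 6.51 CPM untreated and 6.72, 10.0 and 9.34 CPM with OMX in DLM8, a log2 fold change of 0.00 (95% interval -0.63 to 0.63, adjusted p = 0.999). KLF3 in Gracie held 32.5, 25.7 and 23.2 CPM untreated and 46.0, 36.3 and 27.7 CPM with OMX (log2 fold change 0.43, 95% interval -0.20 to 1.05, adjusted p = 0.32). For these rows the intervals still allow changes of over 1.5-fold, so a lack of response is not shown.

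**Figure D2:**
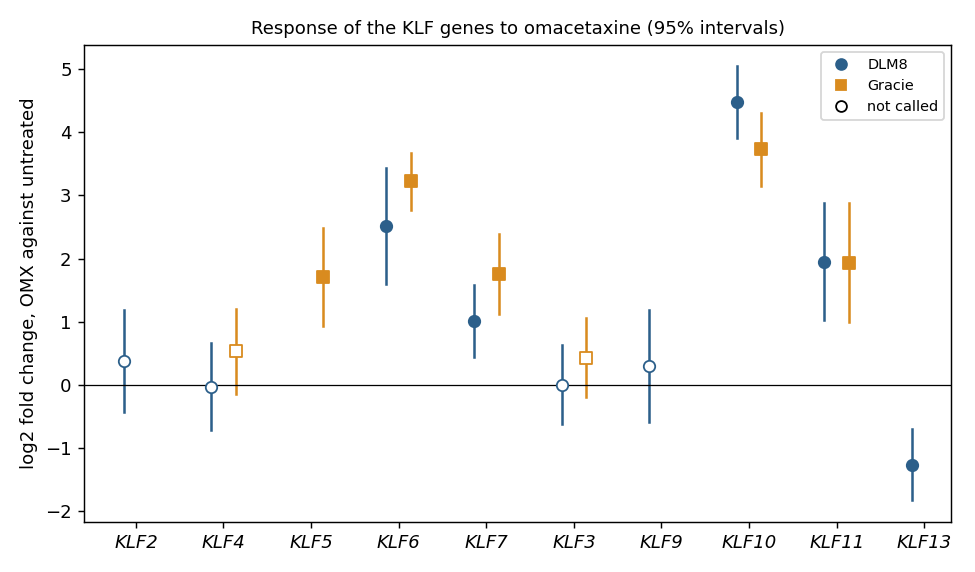
Log2 fold change of OMX against untreated for each tested member (blue circles DLM8, orange squares Gracie, lines 95% intervals, open symbols not called). Klf10, Klf6, Klf11 and Klf7 lie above 0 in both lines, from 1.01 to 4.47 in DLM8 and from 1.76 to 3.73 in Gracie.

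Both lines were set against each other by testing the interaction of line and treatment over 7566 genes with a shared symbol, of which 5.88% were called with the higher response in DLM8, 6.2% with the higher response in Gracie and 12.1% in all. Of the 6 members tested in both lines 0 were called by edgeR or by DESeq2, and 0 had an unadjusted p under 0.05 by edgeR (lowest 0.066, Klf10). The log2 fold change of Klf10 was higher in DLM8 by 0.74 (95% interval -0.06 to 1.54, adjusted p = 0.23), and by 0.45 without DLM8 untreated replicate 3. That of Klf7 was lower in DLM8, the difference being -0.75 (95% interval -1.59 to 0.09, adjusted p = 0.248), and that of Klf6 likewise with -0.71 (95% interval -1.69 to 0.27, adjusted p = 0.363). The Klf6 difference was 0.21 without DLM8 untreated replicate 1. Klf11 responses differed by 0.00 (95% interval -1.24 to 1.24), Klf4 by -0.56 (-1.49 to 0.37) and Klf3 by -0.43 (-1.29 to 0.43). Without Gracie OMX replicate 1 the Klf4 and Klf3 differences were -0.20 and -0.22, and without DLM8 untreated replicate 1 they were -0.35 and -0.24. These intervals are wide, so neither a difference nor a like response of the lines is shown for any of the 6.

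Row counts of different genes were set side by side per exon length for DLM8, with the exon lengths of GENCODE M21. Because of the opposite-strand counts described above, this is an order of rows and not of mRNA levels. In CPM per kb of exon, the untreated order was Klf4 (2.12 ± 0.542), Klf2 (2.05 ± 0.499), Klf13 (1.77 ± 0.244), Klf6 (1.36 ± 1.12), Klf7 (1.15 ± 0.364), Klf10 (1.14 ± 0.472), Klf3 (0.771 ± 0.198), Klf9 (0.693 ± 0.197) and Klf11 (0.322 ± 0.0196), each mean ± SD of n = 3. Neighbours in this order overlapped in their library ranges except Klf9 and Klf11. With OMX the order began with Klf10 (25.7 ± 2.12), Klf6 (7.93 ± 0.590), Klf2 (2.67 ± 0.626), Klf7 (2.31 ± 0.285) and Klf4 (2.08 ± 0.487), in CPM per kb of exon. Klf10 and Klf6 stood apart from each other and from the rest, and the other neighbours overlapped. Klf13, at 0.737 ± 0.106 CPM per kb, came last of the rows with counts, overlapping Klf3 and Klf9. Klf10 thus went from the middle of the untreated order to its top.

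**Figure D3:**
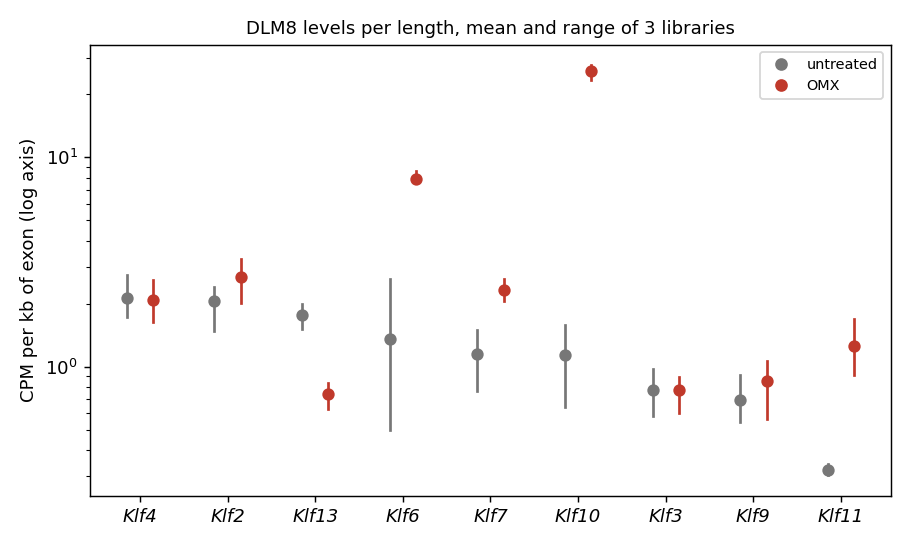
DLM8 row counts (CPM) per kb of exon on a log axis, mean (points) and range (lines) of 3 libraries, grey untreated and red OMX, ordered by the untreated level. Klf5, at 0, is not drawn. Klf10 (25.7) and Klf6 (7.93) lie above all others with OMX, and Klf13 (0.737) lies below its untreated range.

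In the mouse annotation 3 members overlap an opposite-strand gene that also has a row in the mouse table. The row of Gm13748, which overlaps the Klf7 gene mostly in introns (4 bases of exon), held 1.33 times the counts of Klf7. It rose from 10.7, 10.4 and 11.5 to 21.7, 27.3 and 31.1 CPM, and its log2 response was 1.30 (SE 0.21, adjusted p = 0.000518), beside 1.01 for Klf7. Gm20033, which shares 404 exon bases with Klf3, held 3.73 times the counts of Klf3 and its log2 response was -0.11 (SE 0.18, adjusted p = 0.657), close to that of Klf3. Rows facing Klf13 (E030018B13Rik and Gm27252) held 4 and 8 counts in all 6 libraries together, against 552 for Klf13. With the facing rows added to their members, Klf7 had a log2 fold change of 1.17. The other members overlap no such gene, and opposite-strand genes without a row were not searched. The annotation lacks genes added later, and dog gene positions were not used here.

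Promoter windows are shown for Klf6, Klf11 and Klf7, which rose in both lines, and for Klf13, which fell. They are the 250 bases before the RefSeq start site in mouse build GRCm38.p6, 5' to 3' on the gene's strand. Klf5 and Klf10 have no entry, and 8 of 10 members matched by symbol. Capitals mark the E-box CACGTG, the CCAAT box (CCAAT) and the core of the cAMP response element (TGACG), each searched on both strands.
Klf6 (chr13:5861239-5861488, plus strand): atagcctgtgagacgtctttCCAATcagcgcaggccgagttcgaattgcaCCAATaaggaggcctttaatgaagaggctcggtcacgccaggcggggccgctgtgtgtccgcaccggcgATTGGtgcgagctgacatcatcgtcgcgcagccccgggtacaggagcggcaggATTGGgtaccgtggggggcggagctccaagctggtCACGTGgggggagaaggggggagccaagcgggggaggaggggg
Klf11 (chr12:24651121-24651370, plus strand): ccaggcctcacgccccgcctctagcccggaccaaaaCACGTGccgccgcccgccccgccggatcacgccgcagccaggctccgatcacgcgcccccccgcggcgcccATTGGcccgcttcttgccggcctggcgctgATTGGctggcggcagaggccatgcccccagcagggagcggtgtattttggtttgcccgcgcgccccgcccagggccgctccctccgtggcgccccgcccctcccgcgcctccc
Klf7 (chr1:64121390-64121639, minus strand): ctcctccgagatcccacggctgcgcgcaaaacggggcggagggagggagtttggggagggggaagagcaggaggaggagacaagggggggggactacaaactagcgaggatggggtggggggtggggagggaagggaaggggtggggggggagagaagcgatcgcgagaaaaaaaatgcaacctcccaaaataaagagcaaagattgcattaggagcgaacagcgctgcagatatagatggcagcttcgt
Klf13 (chr7:63938916-63939165, minus strand): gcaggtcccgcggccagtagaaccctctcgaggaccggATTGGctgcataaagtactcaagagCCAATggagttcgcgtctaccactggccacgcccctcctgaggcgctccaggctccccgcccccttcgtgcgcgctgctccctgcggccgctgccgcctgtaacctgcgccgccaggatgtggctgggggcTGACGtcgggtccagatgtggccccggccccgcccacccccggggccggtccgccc
The E-box stood in the windows of Klf6 and Klf11 and also of Klf4, while 6.02% of 32851 windows of all genes held it. The CCAAT box stood in those of Klf6 (4 matches), Klf11 (2), Klf13 (2) and Klf9 (3), against 33.9% of all windows, and Klf7 had none of the marked motifs. TGACG stood in the windows of Klf2, Klf4, Klf9 and Klf13 (17.8% of all windows), none of which was called higher in DLM8. The Klf2 window alone among the 8 had a MEF2 site, a motif present in 0.508% of all windows, the Klf9 window alone had an AP-1 site (TGANTCA, 6.75% of all windows), and none had a match to the SRF CArG box (1.47%) or the NF-kB site (3.9%). The CACCC-type box CCNCNCCC that KLF and SP factors bind stood in 7 of the 8 windows, Klf9 being the exception, and in 45.9% of all windows. Its matches can overlap the GC box GGGCGG, which 32.7% of all windows held. A match is a description of these letters, not a bound site.

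AU-rich elements in the 3' UTR mark many short-lived mRNAs, and their core TATTTAT was searched on the mRNA strand in the mouse 3' UTRs of GENCODE M21 (GRCm38), taking the longest per gene. It occurred in Klf2, Klf6, Klf7, Klf10 and Klf11, and not in Klf3, Klf4, Klf5, Klf9 or Klf13. Those with the core were the 4 members called higher in DLM8 and Klf2, which was not called. Klf13, called lower, was without it, as were Klf3, Klf4 and Klf9, which were not called. Whether the core bears on a row's change was not tested. Of 10905 tested protein-coding genes with a 3' UTR of at least 50 bases, 30.2% held it. The 6 sites are shown with the core in capitals. Klf5, which rose in Gracie, has none in its mouse UTR.
Klf2 (chr8:72320988-72321017, plus strand): aaacagactgcTATTTATtggaccttagga
Klf6 (chr13:5868490-5868519, plus strand): gctacgtctctTATTTATgccttgaggact
Klf6 (chr13:5868943-5868972, plus strand): cacaccggctgTATTTATtatgtaacattg
Klf7 (chr1:64029783-64029812, minus strand): gccttctctggTATTTATaatatatcacag
Klf10 (chr15:38294919-38294948, minus strand): cagtgtcttttTATTTATaggagtttttca
Klf11 (chr12:24660911-24660940, plus strand): ttttataaaaaTATTTATattgtgctcaaa
Klf6 had 2 sites, and the other genes had 1 each. Long UTRs hold more matches by length alone, and these ran from 737 bases in Klf2 to 6266 in Klf7. The median over those 10905 genes was 1183 bases, so the 30.2% is not matched for length. Klf10, Klf11 and Klf6 had 1492, 2326 and 3111 bases. Klf3, Klf9 and Klf13, without the core, had 3743, 3222 and 5157. The shorter pentamer ATTTA, which every member had, occurred 2.87 times per kb in Klf7, 2.68 in Klf10, 2.48 in Klf9 and 2.25 in Klf6, against a median of 1.28 per kb over those 10905 genes. It was rarest in Klf5 (0.543 per kb) and Klf13 (0.582 per kb).

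Genes around the family were read from lists, and their counts stand beside the shares over all tested genes, 19.4% higher and 15.9% lower in DLM8 and 12.5% and 8.06% in Gracie. These counts are small and say nothing particular to a list. Of the other KLF genes 3 of 8 were tested in DLM8, and Klf1, the erythroid member, was higher with OMX, at 5.61 ± 0.119 CPM against 2.19 ± 0.293 CPM (SD, n = 3), a log2 response of 1.35 (SE 0.36, adjusted p = 0.0122). Klf16 (0.27, adjusted p = 0.627) and Klf12 (-0.19, adjusted p = 0.874) were not called. In Gracie KLF17 was the 1 tested gene of that list (1.08, adjusted p = 0.402). SP factors share the KLF zinc finger type, and 2 of 6 were higher in DLM8 and 2 of 5 in Gracie (19.4% and 12.5% over all genes). In DLM8 Sp6 rose by 1.88 (SE 0.30) and Sp9 by 1.26 (SE 0.19) on the log2 scale. The row facing Sp6, Gm11532, held 13.8 times its counts and rose by 2.36. In Gracie SP7, the osteoblast factor osterix, rose from 5.95 ± 0.430 to 30.5 ± 1.32 CPM, a log2 response of 2.35 (SE 0.35, adjusted p = 0.000428), and SP2 rose by 1.10 (SE 0.33). Sp7 in DLM8 had a log2 fold change of -0.52 and was not called (adjusted p = 0.0725). The general factors Sp1 and Sp3 had log2 fold changes of 0.16 and 0.20 in DLM8 and 0.53 and 0.44 in Gracie, and none was called. Nor were Sp2 in DLM8 (0.33, adjusted p = 0.237) and SP4 in Gracie (-0.05, adjusted p = 0.912).

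**Figure D4:**
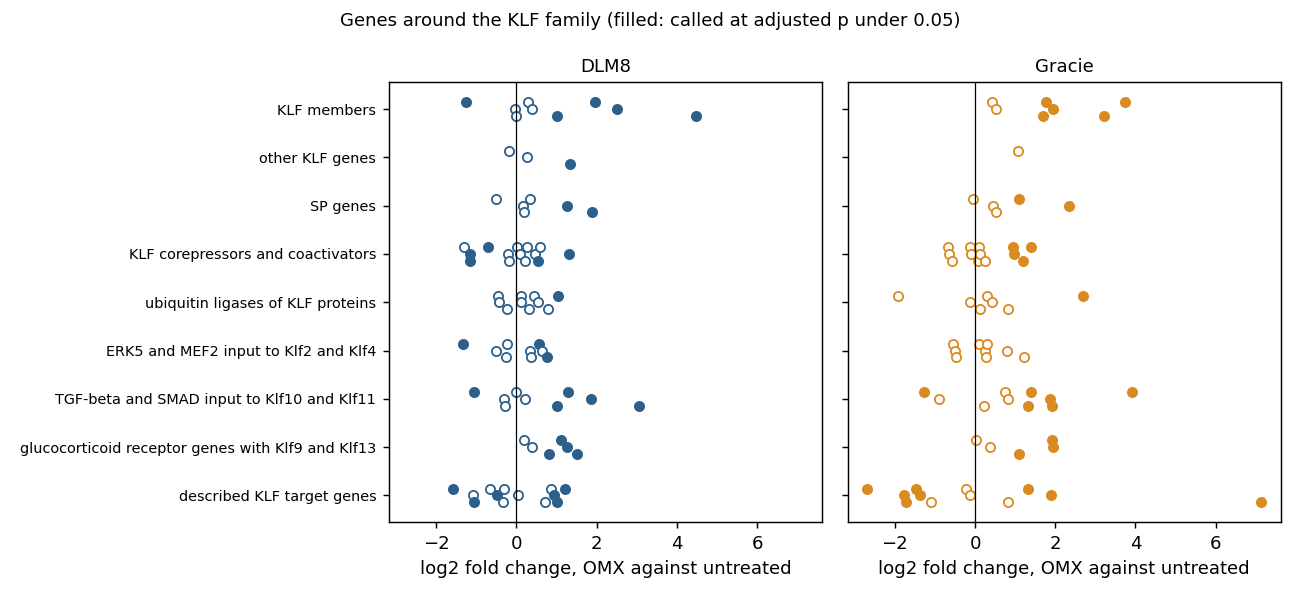
Log2 fold change of every tested gene in the members and in the lists around them, DLM8 left and Gracie right (filled points called at an adjusted p under 0.05). The members reach 4.47 in DLM8 and 3.73 in Gracie, and in Gracie NOS3 (7.12, from 2 untreated counts) and TGFB3 (3.92, from 3) lie beyond them.

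Of the corepressors and coactivators that KLF proteins recruit, 3 of 14 tested genes fell and 2 rose in DLM8, while 4 of 13 rose in Gracie. The 5 of 14 called in DLM8 are near the 35.3% of all genes called there. Median log2 fold changes were 0.05 and 0.09. The acetyltransferase genes Crebbp and Ep300 rose in both, by 1.31 (SE 0.25) and 0.54 (SE 0.15) in DLM8 and by 1.4 (SE 0.21) and 1.21 (SE 0.29) in Gracie. Ctbp2, which encodes a corepressor bound by Klf3, fell by 0.71 (SE 0.26) in DLM8 and rose by 0.98 (SE 0.20) in Gracie. Its partner Ctbp1 fell by 1.17 (SE 0.21) and the deacetylase gene Hdac2 by 1.16 (SE 0.29) in DLM8, and SIN3B rose by 0.94 (SE 0.22) in Gracie. Among ubiquitin ligases of KLF proteins 1 of 10 rose in DLM8 (Wwp1, a ligase of Klf5, by 1.05, SE 0.29) and 1 of 7 in Gracie (SMURF1, by 2.70, SE 0.32), shares below or near the 19.4% and 12.5% of all genes called higher.

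Signals that feed the KLF genes were read next. One list held genes around ERK5 and MEF2, an input to Klf2 and Klf4 in endothelial cells. It joins drivers with restraining genes such as Hdac5, so its counts have no single direction. In DLM8 2 of 9 rose (Map3k3 by 0.76, SE 0.27, and Hdac5 by 0.57, SE 0.17). Of the same 9, 1 fell (Mef2c by 1.32, SE 0.27), and the calls were near the 35.3% of all genes called in DLM8. In Gracie the lowest adjusted p of the 9 was 0.0848, for MEF2A (log2 fold change 0.80), and that of MEF2C was 0.102 (1.21). The TGF-beta and SMAD list joins genes of the pathway that drives Klf10 and Klf11 with the pathway's inhibitors Skil and Smad7. In it 4 of 9 rose and 1 fell in DLM8, and 5 of 10 rose and 1 fell in Gracie. Over all genes 19.4% were higher and 15.9% lower in DLM8, and 12.5% and 8.06% in Gracie. Skil and Smad7 were among the rises in both lines, so the counts and medians are not those of drivers alone. Median log2 fold changes were 0.21 and 1.08, beside 0.02 and -0.01 over all genes tested. Skil, a SMAD corepressor gene that is itself a SMAD target, rose by 3.06 (SE 0.33) in DLM8 and 1.91 (SE 0.27) in Gracie, and Smad3 by 1.86 (SE 0.27) and 1.4 (SE 0.25). Tgfb2, a ligand gene, rose by 1.28 (SE 0.16) in DLM8 and fell by 1.27 (SE 0.28) in Gracie. Another ligand gene, TGFB3, went from 3 to 57 counts in Gracie, a ratio of 16.7 (exact 95% interval 5.43 to 83.3, or 3.22 to 110 with halved counts, counting error only). The receptor gene Tgfbr1 fell by 1.06 (SE 0.26) in DLM8, and SMAD2 rose by 1.86 (SE 0.31) in Gracie. The other receptor gene of the list, Tgfbr2, had 0 counts in every DLM8 library and was not tested there. In Gracie TGFBR2 had a mean of 161 CPM untreated and was not called (log2 fold change 0.22, adjusted p = 0.405). Another list held the glucocorticoid receptor gene and genes that respond to glucocorticoid, a setting in which Klf9 is known. Of these 4 of 6 rose in DLM8 and 3 of 5 in Gracie (19.4% and 12.5% over all genes). The receptor gene was among the genes tested in both lines, and in DLM8 Nr3c1 was not called (log2 fold change 0.19, adjusted p = 0.626). Dusp1, a phosphatase gene of MAP kinases, rose by 1.51 (SE 0.18) and 1.94 (SE 0.32), and Tsc22d3, also called Gilz, by 0.81 (SE 0.29) and 1.93 (SE 0.41). The clock gene Per1 rose by 1.12 (SE 0.26) and the kinase gene Sgk1 by 1.25 (SE 0.44) in DLM8, and the receptor gene NR3C1 rose by 1.10 (SE 0.32) in Gracie. Dusp1 faces Ergic1, whose row held 2.21 times its counts and fell by 0.78.

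Of genes described as KLF targets 3 of 13 were higher and 3 lower in DLM8, near the 19.4% and 15.9% over all genes, and 3 of 12 were higher and 5 lower in Gracie, beside 12.5% and 8.06%. The list joins genes that different KLF proteins activate or repress, in other cell types, so its median (-0.30 in DLM8 and -0.66 in Gracie) has no single predicted sign. Smad7, an inhibitor of TGF-beta signalling that Klf10 is known to repress, rose by 1.01 (SE 0.22) in DLM8 and 1.32 (SE 0.32) in Gracie. S1pr1, a lipid receptor gene activated by Klf2 in T cells, rose by 0.94 (SE 0.26) in DLM8 and fell by 2.68 (SE 0.24) in Gracie. In DLM8 Ccnb1, the cyclin B1 gene, fell by 1.59 (SE 0.25), Tgfbr1 as given above, and Pdgfa, a growth factor gene activated by Klf5, by 0.47 (SE 0.16), while Tagln, a smooth muscle gene, rose by 1.22 (SE 0.36), with OMX libraries far apart (53.6 ± 36.9 CPM, SD, n = 3). Opposite-strand rows moved the same way for Pdgfa (6330403L08Rik, -1.66), Tagln (Gm48529, 0.45) and Tgfb2 (Gm29491, 1.05). Those facing Wwp1 (Gm12353, -0.22, adjusted p = 0.644) and Sp9 (Cir1, 0.07, adjusted p = 0.864), both called higher in DLM8, were not called. In Gracie CDKN1A, the cell cycle inhibitor gene activated by Klf4 and Klf6, rose by 1.88 (SE 0.26), while in DLM8 Cdkn1a was at -0.65 and not called (adjusted p = 0.122). In Gracie CCND1, the cyclin D1 gene, fell by 1.77 (SE 0.25), PDGFA by 1.48 (SE 0.21), THBD, the thrombomodulin gene, by 1.71 (SE 0.43) and PLAUR, the urokinase receptor gene, by 1.37 (SE 0.23). NOS3, the endothelial nitric oxide synthase gene activated by Klf2, went from 2 to 381 counts in Gracie, a ratio of 167 (exact 95% interval 46.0 to 1386, or 29.7 to 6658 with halved counts, counting error only). The interaction fit also covered genes outside the family with a shared symbol, but its values for the listed genes were not read. No difference between the lines is claimed for them.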

How the data were processed

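The authors deposited whole-number counts per gene, 1 table per species with a column per library. STAR, featureCounts and Subread with CanFam3.1, mm39 and GRCm39 are named per the submitters' processing notes; no source used here gives versions, strand setting or treatment of read pairs. Even values made up 67.7% to 73.7% of nonzero counts per library, so exact intervals are also given with halved counts. All columns were mapped by library name (0 left unmapped).

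With edgeR 4.0.16 (R 4.3.3), libraries of 1 line entered each fit: filterByExpr, TMM, the quasi-likelihood F-test, and Benjamini-Hochberg adjustment over all genes tested, called at an adjusted p under 0.05. The standard error is the absolute coefficient before shrinkage divided by the square root of F, and 95% intervals use the t quantile of the fit. The interaction used genes with 1 row per symbol passing in both lines. CPM use TMM-scaled library sizes. DESeq2 1.42.0 was an alternative. Members, lists and motifs were chosen with earlier results of these data known. All members were described; of each list, every called gene was named where 6 or fewer were called in either line, otherwise the 3 with the smallest p per direction, and other KLF and SP genes with values. TGFB3, THBD, PLAUR and Tgfbr2 fall outside this rule and were named after their values were seen. The same holds for the DLM8 values of Cdkn1a and Nr3c1 and the Gracie values of MEF2A and MEF2C. The mouse annotation (GENCODE M21) is of build GRCm38, not that of the table, and was used by gene identifier for exon lengths, opposite-strand overlaps and 3' UTRs; promoters are from RefSeq.

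The scripts were tested on simulated data. Of simulated 2-fold changes 40% were recovered in DLM8 and 20% in Gracie, and of 4-fold changes 81% and 79%. For differences of responses 2% of 2-fold and 60% of 4-fold ones were recovered.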

Additional observations from a re-analysis of the deposited data

How the results depend on the processing

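The counts of members called kept within 1.5 times in every alternative tried: 3 to 4 higher and 1 lower in DLM8, 5 higher and 0 lower in Gracie, and 0 called in the interaction. Leaving out a replicate gave the 3. With the replicate block they were 4 and 1, 5 and 0, and 0, and the block changed no member's call (over all genes 3629 higher and 3217 lower in DLM8, 1427 and 1010 in Gracie). Same-numbered libraries did not all deviate together (r = 0.20, 0.04 and 0.11 in DLM8, 0.13, -0.02 and 0.18 in Gracie). Replicates 1 and 3 of each line correlated best with their own number and replicate 2 did not, so the numbers were not taken as pairs. In each group replicates 2 and 3 were the closest pair by chi-square per degree of freedom (DLM8 OMX 6.02, against 21.4 and 25.9 for the pairs with replicate 1). Whether a batch goes with the numbers was not tested. Scaling by library size alone moved the median of all genes from 0.02 to 0.16 in DLM8 and from -0.01 to -0.14 in Gracie. In the interaction it moved the calls from 445 and 469 to 653 and 241, and the differences of lines to 1.03 for Klf10 (adjusted p = 0.0898), -0.47 for Klf7, -0.43 for Klf6, -0.26 for Klf4 and -0.14 for Klf3. Values near 0 changed sign. Klf3 in DLM8 was 0.0032 with DESeq2 size factors, 0.14 by library size, 0.0105 with the stricter filter (20 counts in 3 libraries), 0.0033 by DESeq2, 0.0093 with the replicate block and 0.0064 with halved counts, and from -0.18 to 0.19 without 1 replicate. Klf4 in DLM8 was 0.11 by library size and from -0.24 to 0.18 without 1 replicate. The Klf11 difference of lines was -0.036 with upper-quartile factors, -0.0060 with no filter and -0.036 with the replicate block, and from -0.30 to 0.20 without 1 replicate. The Klf6 difference ranged from -1.11 to 0.21 without 1 replicate, the highest without DLM8 untreated replicate 1. Without 1 replicate the Klf10 difference ran from 0.45 to 1.04, Klf7 from -0.99 to -0.52, Klf4 from -0.77 to -0.20 and Klf3 from -0.61 to -0.22. The cause was not tested. The lower depth of Gracie widens its floors to between 0.908 and 1.23 CPM per library.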

Other observations

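Other KLF rows stayed under the filter and are given as counts. In Gracie KLF14, a relative of Klf16, had 0 counts in the 3 untreated libraries and 6, 6 and 26 counts in the OMX libraries, replicate 3 holding most of them. KLF8 there had 0 counts untreated and 2, 2 and 0 with OMX, KLF12 had 0, 8 and 12 counts untreated and 9, 8 and 2 with OMX, and KLF1 and KLF15 had 0 counts in every library. In DLM8 Klf8 had 2, 10 and 2 counts untreated and 2, 12 and 6 with OMX, Klf15 had 0, 2 and 2 counts untreated and 4, 6 and 0 with OMX, and Klf14, Klf17 and Klf18 had 0 counts in every library.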
